A study of Xenopus laevis with 30 samples.

Results

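The transcript levels of whole Xenopus laevis embryos (the African clawed frog) at neurula stages were compared with those at tailbud stages on 12 of the 30 Affymetrix arrays of a developmental series. The neurula set held the 6 arrays labelled stage 13, 17 and 19, and the tailbud set the 6 arrays labelled stage 23, 26 and 28, with 2 arrays for each stage, and the 3 stages of a set were averaged. Every embryo was wild type, and the labels name no treatment, give the sex as mixed and the tissue as the whole embryo. Stage is thus the only difference between the groups that the labels name. Whether the arrays come from separate clutches is not stated, and other differences between the groups were not tested. Each array carried total RNA pooled from several embryos, and by the labels the replicates are biological. The arrays of stage 21, which lies between the sets, were kept out of the comparison and were used to place the change in time. The terms neurula and tailbud are the usual names for these stages of the frog and were not printed on the samples.

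In the neurula the dorsal ectoderm thickens into a neural plate, folds and closes into the neural tube, while the mesoderm beside the notochord begins to divide into somites. In the tailbud embryo the body lengthens from a posterior growth zone, and muscle, neurons, blood, heart, kidney, skin and the sense organs take on their working proteins before hatching. Regulators of the germ layers and of axial patterning are known to fade over this time as genes of differentiated tissues come on. In RNA from whole embryos, fewer cells of a type and less RNA per cell cannot be told apart, and this holds for every gene below.

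Of 32539 probe sets that were not controls, 19028 were tested because both arrays of at least 1 of the 6 stages lay above their own array's median signal. Those with 1 gene symbol gave 7022 genes, each represented by its brightest probe set, with the L and S copies of this tetraploid-derived genome joined under 1 symbol. Signals are in the arbitrary linear units of the deposited table, in which each array has a 2% trimmed mean of 500, and differences are log2 signal of tailbud minus neurula. A gene is called when limma's adjusted p is under 0.05, and the sets are separated when all 6 arrays of one lie above all 6 of the other. Array medians ran from 114 to 138 units in the neurula set and from 149 to 169 in the tailbud set. Where an array of the dimmer set lay under its own median, the fold is written "at least N-fold", with each such array raised to that median, a floor chosen here. A gene that is dim in one set entered through the stages where it is bright and so had to differ, and 1697 of the 7022 genes had a dim array in their dimmer set, so the counts of list members below describe the members tested and not all members. Replicates of a stage correlated at 0.986 to 0.990 over probe sets, and each of the 12 arrays was closest to its own replicate among all 30.

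Between the sets, 3215 genes were higher at tailbud stages, 45.8% of those tested, and 2840 were lower, 40.4%, so that 86.2% were called in all. The error of this fit is the spread between the 2 arrays of a stage, with a median standard error of 0.07 log2 units over probe sets, and it leaves out the spread among the stages of a set. A narrower count is therefore given beside it: 1791 genes (25.5%) were called higher with separated sets and 1555 (22.1%) were called lower with separated sets. At 2-fold or more, 1231 genes were higher and 576 were lower, and among the 5292 genes above the median on all 12 arrays these counts were 462 and 309. Over probe sets 16166 were called (85%), 8360 higher (43.9%) and 7806 lower (41%), and 44.7% were called with separated sets. With the 6 stage means as the units, 3 against 3, 7029 of the 19028 probe sets remained past the threshold, 3806 higher and 3223 lower. Counts of list members by this stricter unit are given beside the others below. Genes followed through the alternatives are marked where they lost their call under it, and not every gene named was followed. These list counts are to be read against the shares of all probe sets just given.

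The balance of rises and falls depended on the scale. The added poly-A control RNA gave 551 units at stage 13 and 280 at stage 28, a difference between the sets of -0.67 log2 units, against -0.25 for the hybridisation controls. Scaled to the poly-A controls, the median difference of all probe sets moved from 0.03 to 0.69 and 86.4% of the calls were rises (14220 against 2241). Centred on array medians it moved to -0.33 and 34.3% of the calls were rises (5723 against 10966). All differences below are relative to the deposited scale, on which the median over all genes was 0.05 and 51.7% of the called probe sets were rises.

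**Figure D1:**
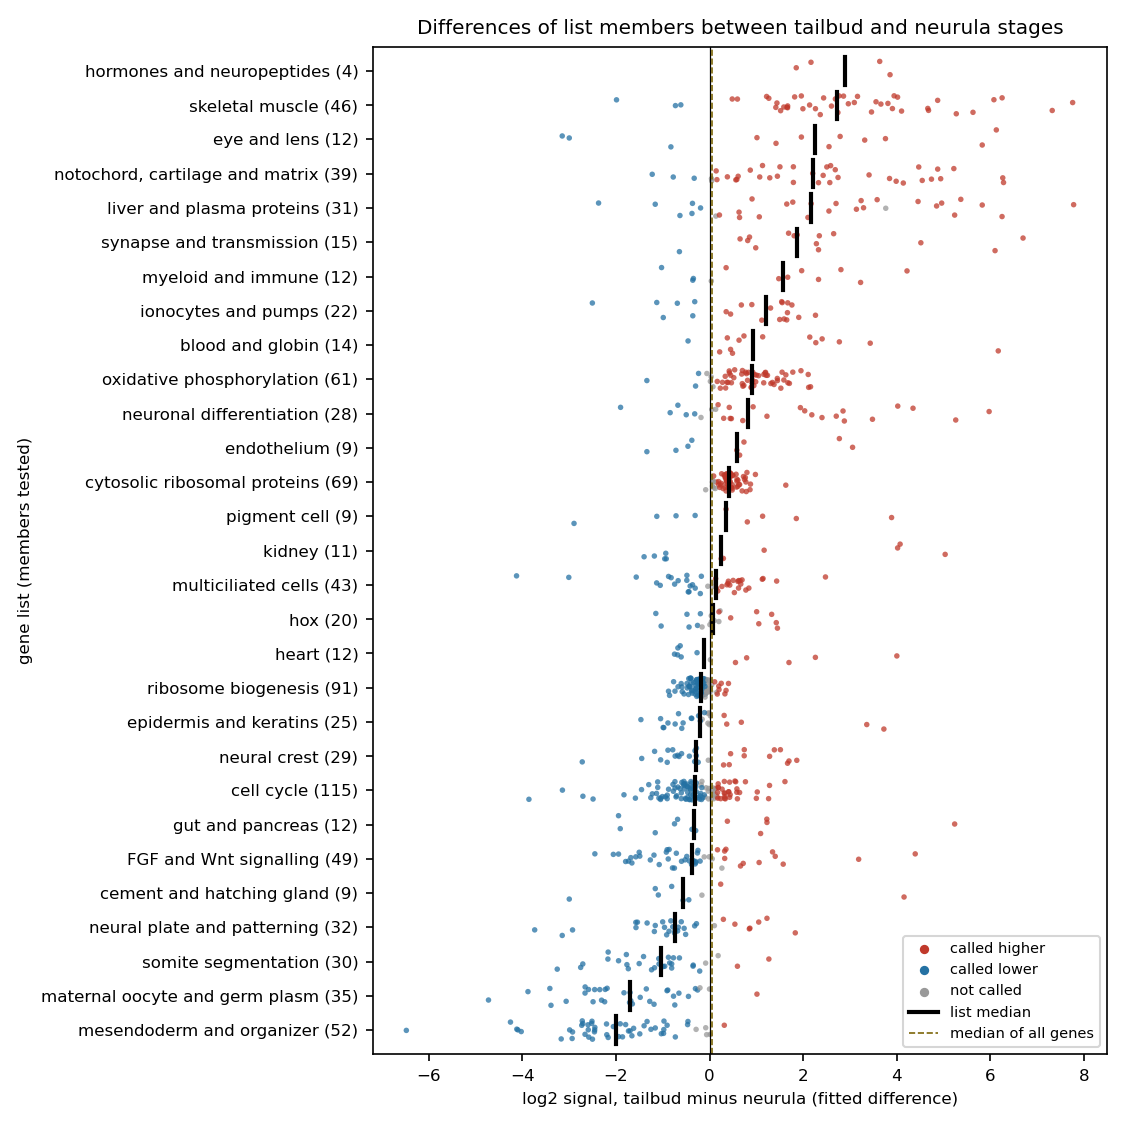
Each point is 1 gene of 29 gene lists, placed by its log2 signal on the deposited scale at tailbud minus neurula stages (horizontal axis) and coloured by the call, with the list median as a black bar and the median of all 7022 genes as a dashed line. Medians ran from -2.002 for the mesendoderm and organizer genes at the bottom to 2.72 for skeletal muscle and 2.90 for the 4 hormone genes at the top, and with arrays raised to their medians these 3 values were -1.64, 1.95 and 1.37.

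The deepest losses were among genes of the gastrula that specify germ layers, the organizer and uncommitted cells. Of 52 tested genes in this list, 47 were lower and 1 was higher, with a median of -2.002, and 39 were lower with separated sets. By stage means as units 38 were lower and 0 higher. The POU factor pou5f3.1, a relative of mammalian Oct4 that holds cells uncommitted, measured 1222 to 5683 units (median 3657) at neurula stages and 68.2 to 337 units (median 162) at tailbud stages. The arrays of the 2 sets did not overlap, and the level was at least 13.7-fold lower (adjusted p = 2.9e-13). The caudal factor cdx1, which patterns the posterior body, went from 6358 units at stage 13 to 2140.4 at stage 19, 659 at stage 23 and 75.5 at stage 28, and was at least 12.51-fold lower between the sets (adjusted p = 9.1e-14). Its relatives cdx2 and cdx4 (the latter named after its value was seen) fell by 1.91 ± 0.05 and 2.46 ± 0.04 on the log2 scale (± SE), again with separated sets. The gastrula transcript gs17 stood at 15000 units at stage 11 and 6741 at stage 13, and was under the array median on both arrays of stages 26 and 28, which made it at least 14.9-fold lower (adjusted p = 1.9e-06). The ectodermal and blood regulator gata2 was 6.65-fold lower, from 1379 to 4130.4 units (median 2800.2) to 232 to 602 units (median 383). Other members named after their values were seen were the mesoderm factor tbxt, at -2.198, the organizer BMP antagonist chrd.1, at -2.50, and the endoderm factor sox17b.1, at least 5.699-fold lower. The exception, also named after its value was seen, was ventx1.1, a ventral homeobox gene, at 0.31 with overlapping sets and its call lost with stage means as units and without stage 26, whereas its relative ventx2.1, chosen in the same way, fell by 2.204. This is the L copy of ventx1.1. Its S copy was called lower, from 505.5 units to 111.2, the latter under the array medians of the tailbud set. Within the neurula set alone 47 of the 52 genes fell from stage 13 to 19 (30.8% of all genes did), then 36 from stage 19 to 23 (25.9%) and 32 from stage 23 to 28 (26.1%).

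**Figure D2:**
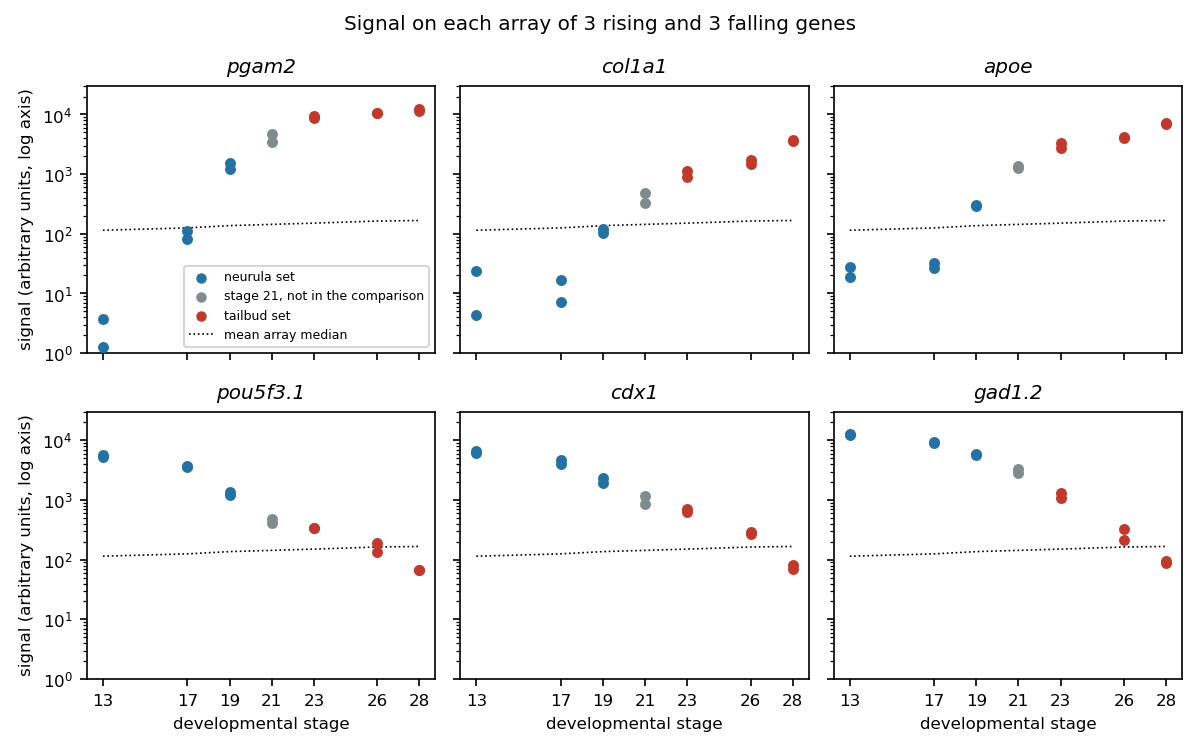
Signal on each array (vertical log axis, arbitrary units) against developmental stage for 3 genes that rose and 3 that fell, with the 2 arrays of a stage as 2 points and the mean array median as a dotted line. In all 6 genes the points of the neurula set and of the tailbud set lie apart, and the stage 21 mean lies between the means of the sets.

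Genes of the maternal and germ plasm list, known for their transcripts in the oocyte, were lower as well. Whether their RNA at these stages was left by the oocyte or made later was not tested. Of 35 tested, 32 were lower and 1 was higher, with a median of -1.70, although 24 of the 35 had a dim array in the dimmer set, and with arrays raised to their median the median was -0.70. With stage means as units 21 were lower and 1 higher. The T-box factor vegt, an oocyte mRNA that specifies endoderm, measured 169 to 2061 units (median 673) against 94.2 to 128 units (median 119.6), at least 3.97-fold lower (adjusted p = 2.1e-11). The egg coat gene zp2 was at least 3.86-fold lower and the germ plasm gene pgat at least 4.54-fold lower. The tailbud arrays of pgat were uneven, with 1018 units at stage 23 and 187 at stage 28. The exception, named after its value was seen, was the RNA-binding gene rbpms2, at 1.01, which is also known from heart and retina.

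Genes of somite segmentation, the clock and boundary system of the presomitic mesoderm, were mostly lower: 26 of 30 fell and 2 rose, with a median of -1.04, and 20 fell with separated sets (20 and 1 with stage means as units). The Notch target hes5.10 measured 518 to 2581 units (median 1656) against 86.1 to 192 units (median 139), at least 7.68-fold lower (adjusted p = 2.1e-12). Mesodermal tbx6 was at least 6.39-fold lower, msgn1, which keeps presomitic cells unsegmented, 4.496-fold lower, and the cyclic gene hes7.2, whose probe set is shared between transcripts, at least 4.25-fold lower. Another member of the family, hes5.2, went the other way, from 298 to 816 units (median 606) to 1061 to 1753 units (median 1239.8), 2.41-fold higher with separated sets (adjusted p = 9.5e-09). The 2 genes called higher were hes5.2 and pcdh8, the latter named after its value was seen, at 0.59 on a shared probe set. The call of pcdh8 was lost with all 30 arrays in the fit and with stage means as units. Among the 11 tested hes genes 9 were lower and 1 was higher.

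Of 32 neural plate and regional patterning genes 24 were lower and 7 higher on the deposited scale, with a median of -0.74, and with poly-A scaling 13 were lower and 11 higher, with a median of -0.08. With stage means as units 15 were lower and 0 higher. The anterior repressor hesx1 measured 169 to 1749 units (median 909) against 31.9 to 75.03 units (median 48.5), at least 4.01-fold lower (adjusted p = 1.5e-10). The eye field factor rax was at least 3.44-fold lower, foxd4l1.1, which keeps neural plate cells immature, at least 4.06-fold lower and the forebrain factor otx1 2.98-fold lower. By step 23 members were lower from stage 13 to 19 (30.8% of all genes), 12 from 19 to 23 (25.9%) and 17 from 23 to 28 (26.1%). The 1 separated rise was dbx1, a spinal interneuron progenitor factor, which was at least 1.42-fold higher, a call lost with all 30 arrays in the fit and with stage means as units.

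Genes of the FGF and Wnt pathways, some of which drive posterior growth, were more often lower than higher on the deposited scale. Of 49 tested, 33 fell and 12 rose (18 and 3 with stage means as units). Their median of -0.39 turned to 0.28 with poly-A scaling. Among the ligands, fgf8, on a shared probe set, fell by 1.73 ± 0.05, wnt8a by 2.06 ± 0.06 and wnt11b by 1.68 ± 0.10, and the Wnt target sp5 was at least 5.402-fold lower. The separated rises were the intracellular FGF family member fgf13 (at least 3.202-fold), the ligand wnt11 (at least 2.02-fold), the Wnt effector tcf7l2 (at least 4.42-fold) and the secreted antagonist sfrp2, which went from 576 to 3312 units (median 1731) to 3408 to 4483 units (median 3920.5) and lost its call with stage means as units.

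Cell cycle genes were split. Of 115 tested, 69 were lower and 32 higher (30 and 10 with stage means as units), with a median of -0.32 that poly-A scaling turned to 0.35. The A, B and E cyclins were called lower in 7 of 7 genes on the deposited scale. Of these, ccnb1 was too dim to give a fold, ccna1 was at least 1.98-fold lower, and the smallest fall, that of ccne2 at -0.68, was close to the poly-A shift and was lost with stage means as units and without stage 13. Cyclin ccnb2 measured 2218 to 4395 units (median 3459.7) against 963 to 1345 units (median 1213), a fall of 1.46 ± 0.04, ccne1 fell by 1.30 and the mitotic phosphatase cdc25c by 1.26. The chromosome passenger birc5 was at least 5.999-fold lower (adjusted p = 3.4e-12). Higher with separated sets were cyclin ccnd2, 3.05-fold, the origin protein orc4, 2.43-fold, and the cytokinesis genes ect2 and kif4a at 1.02 and 1.00. This is the S copy of ccnd2, and the L copy was called lower but lay under the array medians at tailbud stages, with 36.6 units, so no fold is given for it.

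The making of ribosomes and their parts moved apart. Of 91 ribosome biogenesis genes, which process and assemble ribosomal RNA in the nucleolus, 62 were lower and 8 higher (17 and 0 with stage means as units) with a median of -0.18, and poly-A scaling turned this median to 0.48. By stage means the 17 lower of 91 lie near the share over all probe sets, 3223 lower of 19028. The largest separated falls were noc4l at -0.88, imp4 at -0.86, utp23 at -0.77 and the nucleolar methyltransferase fbl at -0.68, and the calls of utp23 and fbl were lost with poly-A scaling. Of 69 cytosolic ribosomal proteins 62 were higher and 0 lower on the deposited scale (limma, adjusted p under 0.05), with a median of 0.42, and after median centring 26 were higher and 14 lower, with a median of 0.07. Stage means as units gave 33 higher and 0 lower. At an unadjusted p under 0.05 on the deposited scale, 0 of the 69 were lower. The largest separated rise was that of rpl29, from 1902 to 4002 units (median 3487) to 8013 to 10856 units (median 9678), a rise of 1.63 ± 0.06, followed by rpl22l1 at 0.98.

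Skeletal muscle gave the largest gain among the larger lists, with 43 of 46 genes higher, 3 lower and a median of 2.72, and 38 were higher with separated sets against 25.5% of all genes. With stage means as units 21 were higher and 2 lower. Glycolytic pgam2, the muscle phosphoglycerate mutase, measured 1.25 to 1524 units (median 97.9) at neurula stages and 8729.5 to 12276 units (median 10690) at tailbud stages. It rose through the neurula set itself, from 2.15 units at stage 13 to 1352 at stage 19, and was at least 39.0-fold higher between the sets (adjusted p = 5.3e-08). Creatine kinase ckm, bright on every array, went from 197 to 4814 units (median 1409) to 11204 to 14879 units (median 11940), a rise of 3.46 ± 0.05. Troponin C (tnnc1) was at least 18.9-fold higher and beta tropomyosin (tpm2) at least 11.97-fold higher. The 3 genes that fell were regulators that act early in the lineage: the determination factors myf5, at -1.99 ± 0.06, and myod1, at -0.73 ± 0.05, and the transcription factor mef2d, at -0.62 ± 0.03. Of these myod1 lost its call and mef2d turned slightly upward with poly-A scaling, and mef2d lost its call with stage means as units. By interval 40 members were higher from stage 13 to 19 (37.6% of all genes), 40 from 19 to 23 (27.3%), and 7 were higher (26.6%) and 10 lower from 23 to 28.

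The oncomodulin 4 genes, small calcium-binding proteins of the parvalbumin family, held 7 of the 15 largest rises. All 7 tested were higher with separated sets, by at least 21.7-fold (ocm4.4) to at least 52.0-fold (ocm4.2). The highest neurula array of ocm4.2 stood at 160.9 units and the lowest tailbud array at 4355, and the signal went on to 14784 at stage 31 and 21101 at stage 48. As members of 1 numbered gene family their transcripts may bind each other's probes, so the 7 rises are uncertain for the single gene and are not independent.

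Genes of notochord, cartilage and matrix rose in 34 of 39 cases, with 3 lower (19 and 2 with stage means as units). Their median was 2.203, or 1.45 with arrays raised to their medians. The 13 tested collagens were all higher on the deposited scale, and 12 had separated sets. Fibrillar col1a1 was on average 10.2 units at stage 13, 112 at stage 19, 1003 at stage 23 and 3654 at stage 28, and was at least 14.4-fold higher between the sets (adjusted p = 4e-06). Its partner col1a2 was at least 12.7-fold higher, and the microfibrillar col6a1 and col6a2 at least 11.9-fold and at least 12.36-fold higher. The 2 separated falls were the lysyl hydroxylase plod1, at -1.23 ± 0.19, and fibronectin (fn1), the matrix of the migrating gastrula mesoderm, at -0.33 ± 0.04. Poly-A scaling turned fn1 upward.

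Structural genes of neurons were mostly higher. Of 28 neuronal differentiation genes 20 were higher and 5 lower (11 and 1 with stage means as units), with a median of 0.82, or 0.47 with arrays raised to their medians. The neuronal tubulin tubb3 measured 6.23 to 635 units (median 186) against 1164 to 2207 units (median 1899), at least 7.29-fold higher (adjusted p = 2.6e-07), stmn2, a regulator of growing microtubules, was at least 10.8-fold higher, the growth cone protein gap43 at least 5.71-fold and the RNA-binding elavl4 at least 5.65-fold. The call of tubb3 was lost with stage means as units. The proneural factor neurog2 and the RNA-binding elavl3, named after their values were seen, were not called, at 0.13 and 0.05. The separated falls were the LIM-domain gene lmo4.2 (at least 3.404-fold) and stmn1, at -0.84, whose other probe set was called in the other direction and whose call was lost with stage means as units.

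Synaptic and secretory genes were higher in 14 of 15 cases, 11 with separated sets and 13 with stage means as units, with a median of 1.87, or 1.24 with arrays raised to their medians. The vesicle fusion gene snap25 went from 115 to 483 units (median 283) to 748 to 1185 units (median 853), a rise of 1.81 ± 0.09, and gamma synuclein (sncg) rose by 2.34 ± 0.09. The single fall, named after its value was seen, was syt1, the calcium sensor of vesicle release, at -0.65 with overlapping sets, lost with stage means as units and turned upward with poly-A scaling. All 4 tested hormone genes rose on the deposited scale (3 with stage means as units), among them somatostatin (sst.1) at 1.85 ± 0.04, which was highest at stage 23 with 2989 units, and the substance P precursor tac1, at least 2.75-fold higher. Of 17 hormone genes on the array only these 4 passed the filter, and 3 of them had a dim array in the dimmer set. Such genes entered through their bright stages, so the 4 rises do not describe the list. With no filter 10 of the 17 were higher and 2 lower, with a median of 1.09.

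Liver and plasma protein genes had their largest median step at the end of the span. Of 31 tested, 23 were higher and 6 lower (17 and 1 with stage means as units). Their median was 2.17, or 0.91 with arrays raised to their medians, since 17 of the 31 had a dim array in the dimmer set. On the signals as deposited the medians of the changes were 0.64 from stage 13 to 19, 0.84 from 19 to 23 and 1.17 from 23 to 28. The steps are not of equal length, so these medians are not rates. The lipid carrier apoe measured 18.8 to 302 units (median 30.03) against 2737 to 7218 units (median 4128), at least 27.4-fold higher (adjusted p = 1.1e-13). The plasma protein precursor ambp stayed between 173 and 342 units on the neurula arrays and then stood at 1972 at stage 23 and 4634 at stage 28, 11.96-fold higher. Gluconeogenic pck1 was at least 10.4-fold higher and complement c9 at least 6.32-fold higher. The gene apoe is also known from macrophages and glia, and the share of each tissue was not tested. The 1 separated fall was foxa2, a regulator of endoderm and midline, at -1.16 ± 0.06.

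Blood, vessel and immune lists were small. Of 14 blood and globin genes 13 were higher and 1 lower (5 and 1 with stage means as units), with a median of 0.93. Globin hbd was under the array median on every neurula array and rose across the tailbud set, from 122 units at stage 23 to 343 at stage 26 and 1782 at stage 28. Alpha globin hba3, on a shared probe set, stood at 285, 657 and 1797 units at the same stages. The blood and vessel regulator tal1 had 85.6 units at stage 13 and 564 at stage 19, and was at least 6.20-fold higher between the sets, while the erythroid factor nfe2 fell by 0.46 ± 0.04. The endothelial list held 5 higher and 4 lower of 9 (2 and 2 with stage means as units), with fli1, a regulator of the shared blood and vessel precursor, at least 3.90-fold higher and the apelin receptor aplnr at -0.46, which poly-A scaling turned upward, as it did nfe2. Of 12 myeloid genes 8 were higher and 3 lower (6 and 0 with stage means as units), among them the phagocyte oxidase cybb, at least 3.17-fold higher with its call lost by that unit, and the transcription factor cebpb, at least 2.08-fold higher. Of these 12, 10 had a dim array in the dimmer set. The myeloid median of 1.57 was 0.50 with arrays raised to their medians. The array held 19 genes of the list, and only these 12 passed the filter.

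In the eye and lens list 9 of 12 were higher and 3 lower (7 and 3 with stage means as units). The lens crystallin cryba1 was under the array median on every neurula array and stood at 71.5 units at stage 23 and 283 at stage 28, and cryba2 was at least 1.65-fold higher. The photoreceptor and cement gland factor crx fell with rax, from 186 to 1711 units (median 761) to 55.4 to 135 units (median 74.0), at least 4.12-fold lower. Because 10 of the 12 genes had a dim array in the dimmer set, the list median of 2.26 dropped to 0.52 with arrays raised to their median, and it was below 0 with the filter at the 75th percentile. Of 28 members of the list on the array, only these 12 were bright enough at some stage of the sets to be tested.

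Genes of ion transport in skin and kidney changed in both directions. Of 22 ionocyte and pump genes 16 were higher and 6 lower (9 and 3 with stage means as units), with a median of 1.21. Carbonic anhydrase ca2 measured 256 to 1823 units (median 694) against 2998 to 3611 units (median 3262), a rise of 2.26 ± 0.04, and the proton pump subunits atp6v1f and atp6v1h rose by 1.91 and 1.67. Over all tested subunits of this pump, the V-ATPase, 18 of 19 were higher and 1 was lower on the deposited scale, with a median of 1.30. The separated falls included the ectodermal factor foxi2, at least 2.63-fold lower, and the membrane carbonic anhydrase ca12, at -0.99. In the kidney list 6 of 11 were higher and 5 lower (4 and 4 with stage means as units), with a median of 0.25 that was below 0 after quantile normalization, after median centring and with the filter at the 75th percentile. The GABA transporter slc6a13 was at least 10.5-fold higher, the pronephric factor mecom at least 5.41-fold higher and the amino acid transporter slc7a8 at 1.17, whereas the early kidney factor lhx1 fell by 1.40, irx3 by 1.18, gata3, lost with stage means as units, by 0.94 and the endocytic receptor lrp2 by 0.93.

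Genes of oxidative phosphorylation rose together on the deposited scale: 54 of 61 were higher and 3 lower, 49 higher with separated sets (43 and 1 with stage means as units), with a median of 0.90 that was 0.54 after median centring. Genes were grouped into complexes by name, so cox10, cox17 and cox7a2l counted with complex IV and the inhibitor atp5if1 with complex V. The counts are thus not of subunits alone. Complex I was higher in 24 of 25 genes, with a median of 0.95, complex III in 5 of 7, at 0.92, complex IV in 10 of 12, at 0.70, complex V, the ATP synthase, in 12 of 13, at 1.24, and complex II in 2 of 3, at 0.28. The complex III core protein uqcrc1 measured 614 to 1330.2 units (median 682) against 2687 to 4933 units (median 3784), a rise of 2.16 ± 0.04, and complex I subunit ndufs4 rose by 2.12 ± 0.08. The separated falls were cox4i2, the alternative form of a complex IV subunit, at -1.34 ± 0.05, and the copper chaperone cox17 at -0.30 on a shared probe set, which poly-A scaling turned upward and stage means as units left uncalled. This is the L copy of cox17, and its S copy was called higher, at 0.45. From stage 23 to 28 alone, 52 of the 61 genes rose and 0 fell (limma, adjusted p under 0.05), against 26.6% and 26.1% of all genes. At an unadjusted p under 0.05, 0 of the 61 fell.

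**Figure D3:**
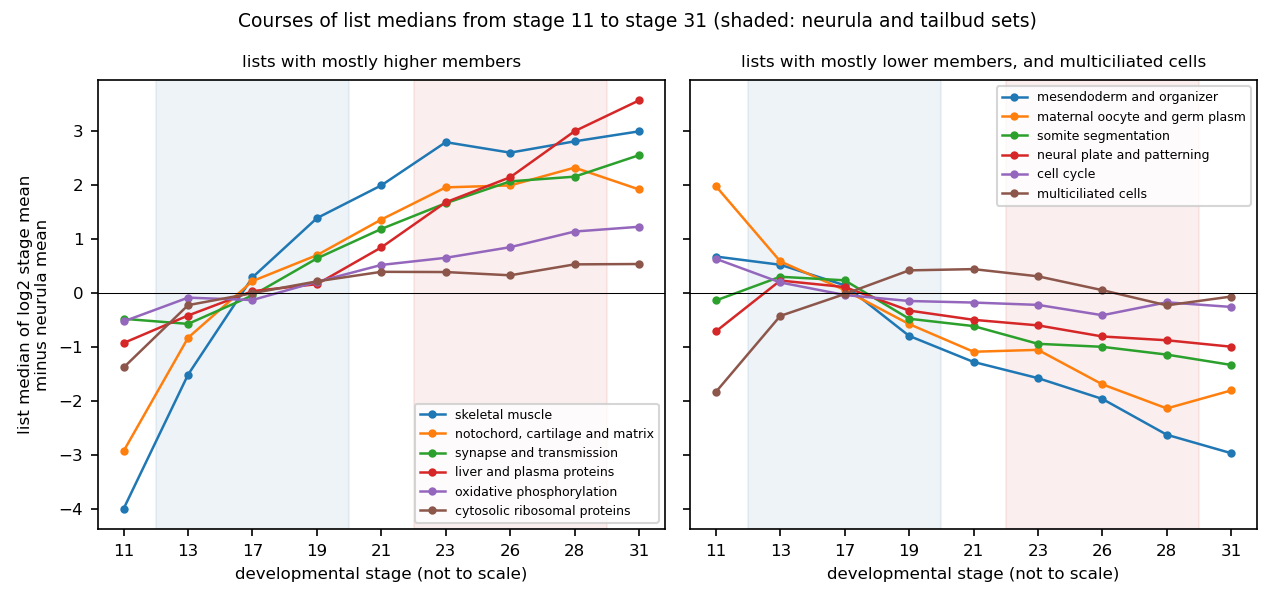
Median over list members of the log2 stage mean minus the neurula mean (vertical axis) at 9 stages from 11 to 31 (horizontal axis, not to scale), with the stages of both sets shaded. Skeletal muscle levels off after stage 23 at 2.79, liver and plasma protein genes climb to 2.996 at stage 28, and mesendoderm and organizer genes decline through the whole span.

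Hox genes, which set position along the body axis and are turned on from the anterior to the posterior paralogs, were grouped by paralog. The 5 tested genes of groups 10 to 13 were all higher on the deposited scale and after quantile normalization, median centring and poly-A scaling. The rise was 1.45 for hoxc10 and, named after their values were seen, 1.42 for hoxd10 and 1.05 for hoxd11, while hoxa11 was at least 1.63-fold and hoxd13 at least 1.26-fold higher, being under the array median on all 6 neurula arrays. With stage means as units hoxc10, hoxd10, hoxa11 and hoxd11 lost their calls, and of all 20 tested Hox genes 1 was higher and 2 lower, against 7 and 6 in the fit by stage. The 1 still higher was among hoxa3, hoxb2 and hoxd13, so the others of these lost their calls too. Of the genes of groups 10 to 13 hoxc10 alone had separated sets, at 217 to 1039 units (median 581) against 1134 to 1691 units (median 1422). The 8 tested genes of groups 4 to 8 were lower in 6 cases and not called in 2 on the deposited scale, and with poly-A scaling 2 were lower and 6 higher. Here hoxb6 fell by 1.15 ± 0.07, hoxb4 by 1.04 ± 0.06 and hoxc6 by 0.48 ± 0.05, each with separated sets, though hoxc6 lost its call with stage means as units. In the anterior groups 2 and 3, hoxa3 was called higher at 0.45 and hoxb2 at 0.20, both with overlapping sets, and hoxa2 and hoxd3 were not called. The differences thus did not run in 1 direction from anterior to posterior groups. The 3 genes of group 9 were not called. Their course was not flat, and hoxb9, named after its values were seen, went from 990.1 units at stage 13 to 2396 at stage 19 and back to 1374 at stage 28.

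**Figure D4:**
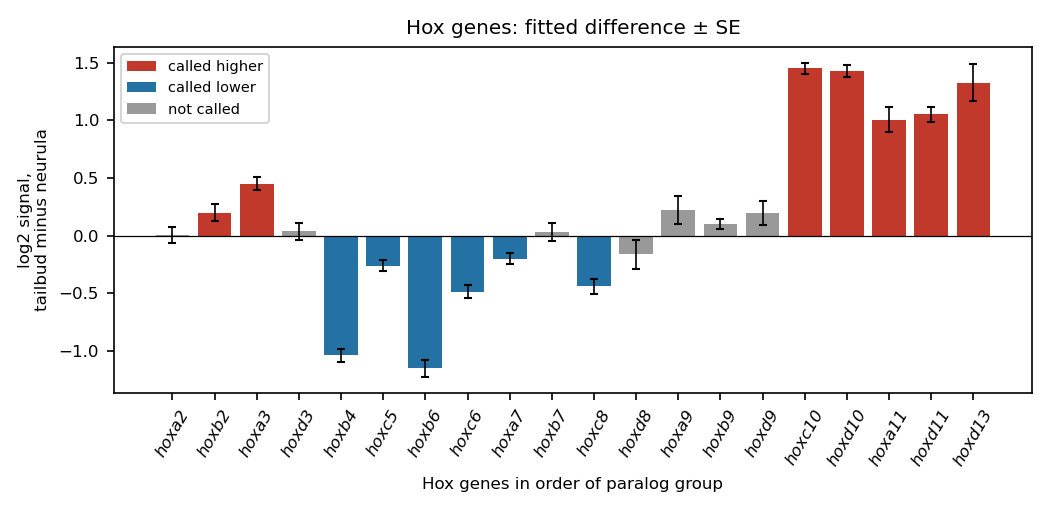
Fitted log2 difference of tailbud minus neurula on the deposited scale with its standard error (bars and whiskers) for the 20 tested Hox genes in order of paralog group. The bars of groups 10 to 13 lie above 0, those of hoxa11 and hoxd13 resting on neurula signals under the array median, and the bars of groups 4 to 8 lie between -1.15 and 0.04, of which 6 turn higher with poly-A scaling. Those of groups 2 and 3 lie between 0.0058 and 0.45.

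In the list for multiciliated cells, which beat mucus over the embryonic skin, the average over stages covered a rise and a later fall. Between the sets 22 of 43 genes were higher and 18 lower, with a median of 0.13 that was below 0 after quantile normalization and median centring and without stage 23. Stage means as units gave 0 higher and 6 lower. Within the neurula set 29 rose and 8 fell from stage 13 to 19, against 37.6% and 30.8% of all genes. Within the tailbud set 31 fell and 3 rose from stage 23 to 28, against 26.1% and 26.6%. Both changes were called in 24 genes, 55.8% of the list against 7.21% of all genes. The microtubule protein tekt3 went from 81.0 units at stage 13 to 1428 at stage 19, 2527 at stage 23 and 1682 at stage 28, and was at least 4.96-fold higher between the sets (adjusted p = 5e-13), a call lost with stage means as units. The regulator of centriole multiplication ccno ran ahead of it, at 1297, 712 and 162 units at stages 13, 17 and 19 and under the array median thereafter, at least 3.31-fold lower. The multiciliated cell regulator mcidas, named after its values were seen, had 239 units at stage 13 and was under the array median from stage 17 on, and its call was lost with stage means as units. The cilia assembly gene cfap298 fell by 1.06 and the centriole kinase plk4, on a shared probe set, by 0.88.

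**Figure D5:**
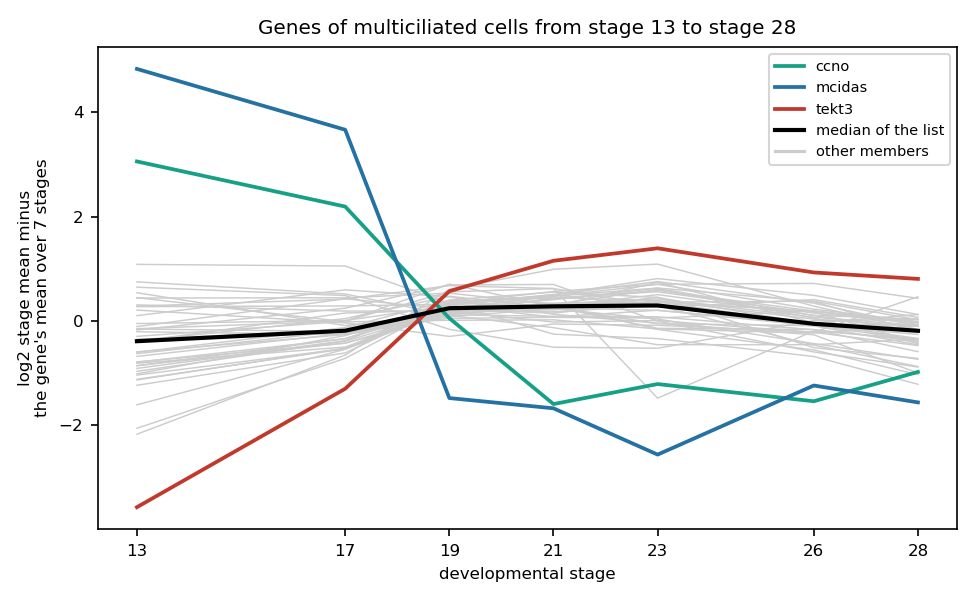
Log2 stage mean of the 43 tested genes of multiciliated cells, each set against its own mean over 7 stages (vertical axis), by developmental stage (horizontal axis), with the list median in black. The curve of tekt3 rises to stage 23 and then declines, while ccno and mcidas drop before stage 21, and levels of the latter 2 from then on lie under the array median and are poorly measured.

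Genes of skin and its glands were more often lower than higher on the deposited scale. Of 25 epidermal genes 14 were lower, 5 higher and 6 not called (10 lower and 1 higher with stage means as units), with a median of -0.20 that poly-A scaling turned to 0.47. The epithelial membrane protein upk1b fell by 1.47 ± 0.06, the tight junction claudin cldn6.1 by 1.05 and the barrier regulator grhl3 by 0.99. The keratin krt12.2 alone rose with separated sets, from 152 to 2117 units (median 527) to 3681 to 10575 units (median 8672), 13.2-fold higher (adjusted p = 5.9e-13). Of 9 cement and hatching gland genes 6 were lower and 2 higher (4 and 0 with stage means as units), with a median of -0.57 that turned above 0 with poly-A scaling. The cement gland marker ag1 kept between 7749 and 12697 units on all 12 arrays and was at -0.44 ± 0.03, and poly-A scaling turned it upward. The hatching protease astl3a.1, named after its values were seen, stood at 6.26 units at stage 13, 2299 at stage 19 and 5980.4 at stage 28 but had overlapping sets, and lost its call with stage means as units.

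Neural crest, pigment, heart and gut lists were mixed. Of 29 neural crest genes 17 were lower and 11 higher (8 and 5 with stage means as units), with a median of -0.28 that poly-A scaling turned to 0.38. The separated falls included the crest regulator sox8 at -1.45, the repressor snai1 at -1.05 and the retinoid-binding crabp2 at -1.18, while mycn, on a shared probe set, at 1.86, dlx2, which patterns the pharyngeal arches, at 1.67, and the adhesion gene cdh11 at 1.38 were higher, of which mycn lost its call with stage means as units. Other crest regulators, named after their values were seen, were called higher with overlapping sets, with sox9 at 0.45, tfap2b at 0.30, sox10 at least 1.18-fold and twist1 at least 1.18-fold higher. All 4 lost their calls with stage means as units. Without stage 13 sox10 was called lower, at -0.40, and tfap2b was not called, at -0.071. The call of twist1 was also lost after quantile normalization and median centring, with all 30 arrays in the fit and without stage 13. That of sox9 was lost after median centring. The pigment list held 5 higher and 4 lower of 9 (1 and 3 with stage means as units), with a median of 0.35, or 0.23 with arrays raised to their medians, that was below 0 after median centring, with the filter at the 75th percentile and without stage 19. Its melanosome genes gpnmb and pmel were at least 5.98-fold and 2.19-fold lower, whereas rab38, a melanosome transport gene, was at least 1.51-fold higher with separated sets. With overlapping sets and named after their values were seen, slc45a2, a melanosome transporter, was at least 2.03-fold higher and the L copy of rab27a at 0.81, both lost with stage means as units. The S copy of rab27a was called lower, at -0.79. The melanin enzyme tyrp1, also named after its values were seen, was called higher but lost the call with 2 groups of 6 arrays and with stage means as units, and had 646 units at stage 13, 244 at stage 21 and 3239 at stage 28. In the heart list 5 of 12 were higher and 6 lower (3 and 2 with stage means as units), with a median of -0.13, or 0.18 with arrays raised to their medians, that turned to 0.54 with poly-A scaling and was also above 0 with no filter and without stage 17 or 23. The early cardiac and endodermal factors gata4, gata5 and gata6 were at -0.75, -0.63 and -0.68, of which gata5 turned upward and gata4 and gata6 lost their calls with poly-A scaling, and gata5 lost its call with stage means as units, while the cardiac factor hand2 was at least 2.57-fold higher and the chaperone hspb7 at least 2.49-fold higher. Cardiac troponin I (tnni3) was under the array median on every neurula array and reached 208 units at stage 28. Of 12 gut and pancreas genes 5 were higher and 7 lower (2 and 5 with stage means as units). Their median of -0.34 was -0.07 with arrays raised to their medians, and above 0 with poly-A scaling, with no filter and without stage 28. Of 33 gut and pancreas genes on the array only these 12 passed the filter. With no filter 14 of the 33 were higher and 7 lower, with a median of 0.68. Among them were hnf4a, a regulator of liver and gut, at least 5.76-fold higher, the endodermal peptidase gene darmin at 1.22 ± 0.04, and frzb2, a secreted Wnt antagonist, at least 2.79-fold lower.

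Some of the largest changes lay outside these lists. The glutamate decarboxylase gad1.2, which makes GABA, gave the largest fall by the bounded fold, from 5673 to 12710 units (median 9211) at neurula stages to 86.7 to 1303 units (median 269.7) at tailbud stages, at least 23.3-fold lower (adjusted p = 7.3e-12). The has-rs gene, related by name to hyaluronan synthases, was at least 12.23-fold lower, the histone gene h2bc11 at least 11.5-fold lower and rrm2.1, a subunit of ribonucleotide reductase, 10.2-fold lower. The cation and carnitine transporter slc22a4 was 9.14-fold lower on a shared probe set and the angiopoietin angpt4 8.53-fold lower. The transcription factor zbtb33 was uneven: it measured 10921 units at stage 21, 343 at stage 23, 1047 at stage 28 and 9203 at stage 31, and 1 of its 2 other probe sets was called higher. Among the rises, the glutathione transferase gstp1, on a shared probe set, went from 174 units at stage 21 to 9327 at stage 23 and 3062 at stage 26, at least 37.3-fold higher between the sets. The metallothionein mt4 was at least 28.4-fold higher and muscle caveolar cavin4 at least 21.0-fold higher. The neural fatty acid-binding protein fabp7 went from 15.4 to 179 units (median 54.2) to 1284 to 5281 units (median 2435), with separated sets.

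Between these extremes stood genes that held their level and genes that moved but were not called between the sets. The 6 brightest steady genes were hspa1l, krt7, slc25a5, eif3a, rps29 and rps2, with differences from -0.07 to 0.09, and for 4 of them (krt7, eif3a, rps29 and rps2) another probe set was called in either direction. Small as its difference was, rps29 was itself called higher (limma, adjusted p = 0.044), a call lost with stage means as units. That call was also lost with 2 groups of 6 arrays, with the replicate number as a block and on leaving out most single arrays. The chaperone hspa1l measured 18149 to 20149 units (median 19107) against 16513 to 20663 units (median 18824), and its sets overlapped. Of the 6 uncalled genes with the widest stage means, acod1lb peaked at stage 17 with 7127 units and again at stage 23 with 6947, and satpb followed it with 807 and 1698. The differences of acod1lb and satpb between the sets were 0.95 and 0.97, so being uncalled does not mean no change. Without stage 17 both were called higher, at 2.31 and 1.74. The matrix protease mmp28 went from 196 units at stage 13 to 878 at stage 19 and stood at 399 at stage 28, with a difference between the sets of 0.03.

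The timing of the change was spread over the span. Among the 1231 genes at least 2-fold higher, the median change was 1.21 from stage 13 to 19, 0.86 from stage 19 to 23 and 0.52 from stage 23 to 28, and 372 rose at every step. Among the 576 at least 2-fold lower, the medians were -0.86, -0.74 and -0.66, and 208 fell at every step. In the arrays of stage 21, which neither set used, 1121 of the 1231 higher genes (91.1%) and 534 of the 576 lower genes (92.7%) lay between the set means, and over all called genes these shares were 73.4% and 73.1%. The median position of stage 21 on the way from the neurula to the tailbud mean was 0.64 for the higher and 0.57 for the lower genes, where 0 is the neurula and 1 the tailbud mean. Over all 15 stages, 463 of the higher genes (37.6%) were highest at stage 48 and 156 of the lower genes (27.1%) at stage 11. By limma, 68.4% of genes differed between stages 13 and 19, 53.2% between 19 and 23 and 52.7% between 23 and 28. Over probe sets these shares were 65.8%, 50.5% and 48.9%.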

How the data were processed

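Whole wild-type embryos were profiled by the submitters on single-colour Affymetrix arrays, 2 for each of 15 stages. Per the labels, total RNA pooled from several embryos was extracted with a lipid tissue kit and labelled with biotin in 1 amplification cycle. The deposited values are intensities on a linear scale, which per the submitters' processing notes were made with MAS5 (version not given in the sources used here); each array has a 2% trimmed mean of 500 in the deposited table. Per the platform annotation, 15495 probe sets had 1 gene symbol, 279 had several and 16765 had none, and symbols were updated through RefSeq for Xenopus laevis, where 15384 matched and 2 were renamed.

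From the deposited intensities log2 was taken with no further scaling, and a mean per stage was fitted over the 12 arrays with limma 3.58.1 in R 4.3.3 (trend and robust eBayes, 6 residual degrees of freedom, Benjamini-Hochberg over all 19028 tested probe sets). The contrast was the mean of stages 23, 26 and 28 minus that of stages 13, 17 and 19, and the steps from stage 13 to 19, 19 to 23 and 23 to 28 came from the same fit. Genes were named by rule: the 15 largest rises and 15 largest falls with separated sets after raising each array to its median, up to 4 separated members of each list in each direction, the 6 widest uncalled genes and the 6 brightest steady ones. Exceptions are marked in the text. The comparison, members and 29 gene lists were chosen with earlier results of these data known. On simulated data with 200 changed probe sets, 96 of 100 changed 2-fold and 99 of 100 changed 4-fold were recovered, and 6 of 18828 unchanged ones were called. The simulated noise came from the differences between replicates, which is the error the fit assumes, and unchanged probe sets had no difference between the sets. It therefore checks the fit under its own error and cannot show how the spread among the stages of a set bears on the calls. Replicate numbers did not pair arrays across stages: over 15 pairs of stages, correlations of same-numbered deviations ran from -0.06 to 0.06. The number of arrays limits the precision, since 2 arrays a stage give the error of every value. Other scalings, filters, a pseudocount of 50, other thresholds and error terms, and leaving out each array or stage were tried as alternatives.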

Additional observations from a re-analysis of the deposited data

How the results depend on the processing

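The counts depended most on scale, filter, threshold and error term. With the stricter filter at the 75th percentile 9324 probe sets were called (4259 higher, 5065 lower), and 7466, 6188 and 5989 in the steps from stage 13 to 19, 19 to 23 and 23 to 28, over 10444 tested. Asking for at least 2-fold gave 5188 (3420 higher, 1768 lower), and 4152, 2027 and 1760 in the steps. With the 6 stage means as units 7029 were called (3806 higher, 3223 lower), and poly-A scaling gave 14220 higher and 2241 lower. With no filter 21498 were called, and with 2 groups of 6 arrays 12975. With the replicate number as a block 16148 were called (8357 higher, 7791 lower). Leaving out 1 array gave 15880 to 15994 calls, with 10838 to 12565, 6977 to 9703 and 7042 to 9456 in the 3 steps, and leaving out 1 stage gave 15243 to 16240. The share of genes changed at least 2-fold whose stage 21 mean lay between the sets was 91.6%, against 94.3% with poly-A scaling, 93.1% with log2 of signal plus 50, 96.5% with stage means as units and 88.5% with no filter.

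Of 176 genes followed, 118 kept their direction and their side of the threshold under every alternative run. Poly-A scaling turned ag1 to 0.22, aplnr to 0.20, cox17 to 0.37, eif3a to 0.59, fn1 to 0.34, gata5 to 0.037, hoxc6 to 0.18, hspa1l to 0.63, krt7 to 0.63, mef2d to 0.051, nfe2 to 0.21, slc25a5 to 0.65 and syt1 to 0.020. Median centring turned elavl3 to -0.31, hoxb9 to -0.26, mmp28 to -0.32, neurog2 to -0.22, rps2 to -0.29, rps29 to -0.27, tfap2b to -0.056 and ventx1.1 to -0.040. Without stage 13, hoxb9 went to -0.24, mmp28 to -0.65, sox10 to -0.40 and tfap2b to -0.071. The cause was not tested. Signals under the array median are the least certain, and a rise or fall there is given as a bound.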

Other observations

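Where both the L and the S copy of a gene had a tested probe set, the copies did not always move together. Of 1428 such genes both copies were called in 1095, and 894 of these had the same direction and 201 opposite directions. Among the 994 genes whose 2 probe sets lay above the array median on all 12 arrays, both copies were called in 747, with the same direction in 598 and opposite directions in 149. Across these genes the differences of the copies correlated at 0.641 (Pearson), which is a description, since genes are not independent replicates and probe sets differ in quality. The 3 genes below were chosen after their values were seen, as those with the largest opposite changes among the bright copies. For epas1, a hypoxia-inducible factor, the L copy went from 311.7 to 657.7 units and the S copy from 678.1 to 338.2 units. For the mitochondrial enzyme aldh6a1 the L copy went from 975.6 to 1923 units and the S copy from 987.4 to 528.1 units. For stmn1, a microtubule regulator, the L copy went from 2012 to 1121 units and the S copy from 949.3 to 2027 units. Whether such probe sets measure only the named copy was not tested.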
